A study of Mus musculus with 6 samples.

Results

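The myelin and oligodendrocyte lineage genes described here are 31 of the 36079 genes in a table of bulk brain expression, taken as the rows whose Ensembl identifier maps to the symbols of a list of myelin proteins, myelin lipid enzymes, lineage transcription factors and precursor genes. All 31 were found, and all had enough signal to be tested. They comprise 22 genes of mature myelin and myelinating oligodendrocytes, 5 transcription factors of the lineage (Myrf, Olig1, Olig2, Sox10 and Nkx6-2) and 4 genes of precursors and newly formed oligodendrocytes (Pdgfra, Gpr17, Bcas1 and Enpp6). All mice had been made epileptic with kainic acid, an agonist of glutamate receptors that provokes seizures. For 3 weeks, 3 of them ate a ketogenic diet, which is high in fat and low in carbohydrate, and 3 ate chow, the control diet. The series names the temporal lobe as the tissue, and the sample labels say only brain. The sources used here give no strain, age, sex or dose of kainic acid, and no group without kainic acid was analysed here. The labels number the mice, with 1 library each, and say nothing of how they were housed or dissected, so p-values measure the spread between these 6 libraries.

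Oligodendrocytes wrap axons in myelin, a stack of membranes that speeds conduction. The membrane is rich in galactolipids and cholesterol and is held together by a small set of abundant proteins. The cells arise from precursors that carry the receptor Pdgfra, pass through a premyelinating stage marked by Gpr17, Bcas1 and Enpp6, and then switch on myelin genes under Sox10, Olig and Myrf transcription factors. Myelin is dense in white matter and in heavily myelinated regions such as the thalamus and sparser in the upper cortex, and precursors are spread more evenly over the brain.

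Expression was deposited as FPKM, fragments per unit of gene length and of mapped fragments, which scales for gene length and library size. Whole reads recovered from the FPKM steps summed to between 44063309 and 55910355 per ketogenic library and between 39927217 and 55283358 per chow library. Members had from 141 recovered reads (Nkx6-2 in ketogenic replicate 2) to 355067 (Mbp in chow replicate 1) in a library. The libraries stand apart in brain regions. Summed over 12 thalamic neuron markers, expression was 22.0 to 36.8 FPKM in the ketogenic libraries, against 486 FPKM in chow replicate 1, 27.4 FPKM in chow replicate 2 and 85.8 FPKM in chow replicate 3. Log2 changes without chow replicate 1 are therefore given beside the results for each group of members.

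Most members shared the same highest and lowest library, while the order of the libraries between them varied. Chow replicate 1 held the highest value in 30 of 31 members, where it held the highest value in 29.6% of all 16009 genes tested. Ketogenic replicate 2 held the lowest value in 29 of 31, against 26.7% of all genes. Ketogenic replicate 3 came second in 21 members and was above both other ketogenic libraries in all 22 mature myelin genes, and above chow replicates 2 and 3 in 17 of them. Ketogenic replicate 2 was below every chow library in all 22, and ketogenic replicate 1 was below every chow library in 15. Relative to ketogenic replicate 2, the median mature gene was 1.44-fold higher in ketogenic replicate 1 and 2.15-fold higher in ketogenic replicate 3, and 3.86-fold, 1.5-fold and 1.81-fold higher in chow replicates 1, 2 and 3. The ratio of the highest to the lowest library had a median of 3.86 over the mature genes, with a range from 2.5 for Gal3st1 to 5.0 for Tmem88b, and a median of 1.6 over the 15839 tested genes above 0 in every library.

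**Figure D1:**
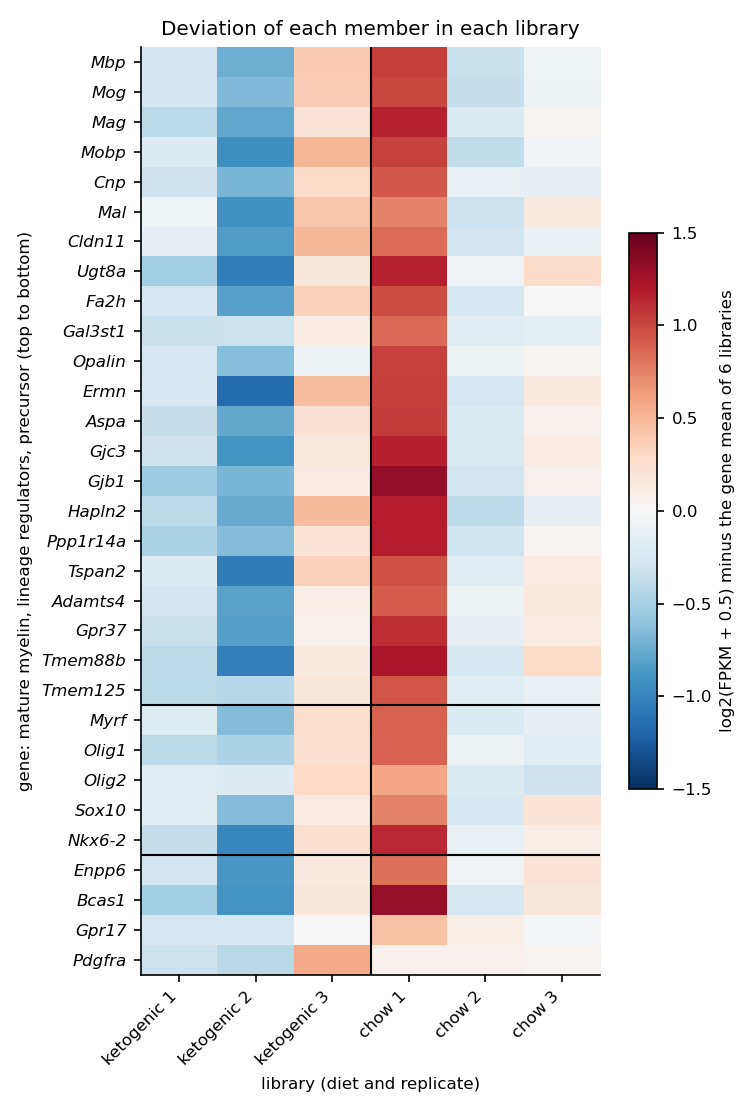
Heat map of the 31 members (rows) in the 6 libraries (columns, ketogenic left of chow), each cell showing log2(FPKM + 0.5) minus the gene's mean over the 6 libraries. Chow replicate 1 is the reddest column in 30 of 31 rows and ketogenic replicate 2 the bluest in 29, while Pdgfra is highest in ketogenic replicate 3.

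Mbp and Mobp, structural proteins of compact myelin, and Mal had the highest mean FPKM of the members. Cldn11, at a mean of 70.8 FPKM over the 6 libraries, lay below Cnp at 83.3 FPKM. Mbp (ENSMUSG00000041607), the myelin basic protein that zips the cytoplasmic faces of the membrane, stood at 300.2, 222 and 478 FPKM in ketogenic replicates 1, 2 and 3, against 753, 292 and 350.1 FPKM in chow replicates 1, 2 and 3. Its groups overlap, because ketogenic replicate 3 lay above chow replicates 2 and 3. Mobp, a basic protein of the same compartment, measured 125, 76.1 and 205 FPKM in ketogenic libraries, against 295, 112 and 140.4 FPKM in chow libraries. Mal, a proteolipid of membrane sorting, measured 111, 61.6 and 156 FPKM in ketogenic libraries, against 195, 92.9 and 127 FPKM in chow libraries. Both genes ordered the 6 libraries as Mbp did, with ketogenic replicate 1 just above chow replicate 2. Cldn11, the claudin of myelin tight junctions, measured 60.8, 36.7 and 93.0 FPKM in ketogenic libraries, against 118, 54.5 and 61.6 FPKM in chow libraries, with the smallest difference among the mature genes. The log2 changes on the log2(FPKM + 0.5) scale, ketogenic minus chow, were -0.42 ± 0.43 (SE) for Mbp, -0.42 ± 0.47 for Mobp, -0.37 ± 0.40 for Mal and -0.31 ± 0.41 for Cldn11. None passed limma's test, with adjusted p-values from 0.793 to 0.836. Without chow replicate 1 the log2 changes were -0.01 for Mbp, -0.01 for Mobp, -0.09 for Mal and 0.03 for Cldn11.

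Proteins of non-compact myelin and of the myelin surface also had their highest value in chow replicate 1 and their lowest in ketogenic replicate 2. Cnp, the cyclic nucleotide phosphodiesterase that keeps cytoplasmic channels open, averaged 68.8 ± 23.6 FPKM in ketogenic libraries and 97.8 ± 44.7 FPKM in chow libraries (SD, n = 3 each). Mag, an adhesion protein on the inner membrane that faces the axon, measured 31.3, 23.9 and 47.5 FPKM in ketogenic libraries, against 92.3, 35.9 and 42.5 FPKM in chow libraries. Mog, a glycoprotein on the outermost surface, measured 23.8, 18.4 and 38.0 FPKM in ketogenic libraries, against 59.2, 22.9 and 27.8 FPKM in chow libraries. The log2 changes were -0.65 ± 0.40 (SE) for Mag and -0.39 ± 0.41 for Mog. Both genes were measured in the same libraries, so these SEs do not measure the gap between them, which was not tested. Opalin (ENSMUSG00000050121), a glycoprotein of paranodal loops, was the 1 member whose groups did not overlap, at 5.66, 4.22 and 6.45 FPKM in ketogenic libraries, against 14.5, 6.48 and 7.05 FPKM in chow libraries. Its highest ketogenic value and its lowest chow value were 6.45 and 6.48 FPKM, a gap too small to be told from counting error. Over all genes tested, 7.49% had every ketogenic library below every chow library, so 1 of 31 is no larger a share than the background. No member had every ketogenic library above every chow library, which held for 4.9% of all genes. The log2 change of Opalin was -0.66 ± 0.32 (SE; limma, adjusted p = 0.752). Without chow replicate 1 the log2 changes were -0.31 for Opalin, -0.24 for Mag, -0.12 for Cnp and 0.02 for Mog.

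Among enzymes of myelin lipids, Ugt8a had the largest difference of all 31 members. Ugt8a (ENSMUSG00000032854) encodes the galactosyltransferase that makes galactosylceramide, the main glycolipid of myelin. It measured 8.52, 5.76 and 14.0 FPKM in ketogenic libraries, against 28.1, 12 and 15.2 FPKM in chow libraries. Ketogenic replicate 3 lay between chow replicates 2 and 3, which is the whole of the overlap. The log2 change was -0.93 ± 0.40 (SE), with a 95% interval from -1.89 to 0.04 (limma, adjusted p = 0.752). The enzymes on either side of it in the pathway had log2 changes nearer 0, a gap that was not tested. Fa2h, which hydroxylates the fatty acids of these lipids, measured 9.10, 6.09 and 14.1 FPKM in ketogenic libraries, against 22.2, 9.27 and 11 FPKM in chow libraries. Gal3st1, which sulfates galactosylceramide to sulfatide, measured 2.57, 2.57 and 3.65 FPKM in ketogenic libraries, against 6.40, 2.93 and 2.97 FPKM in chow libraries. Their log2 changes were -0.49 ± 0.40 and -0.36 ± 0.30 (SE). Aspa, which frees acetate from N-acetylaspartate in oligodendrocytes, averaged 2.60 ± 1.07 FPKM in ketogenic libraries and 4.34 ± 2.38 FPKM in chow libraries (SD, n = 3 each). Leaving out chow replicate 1 gave log2 changes of -0.58 for Ugt8a, -0.22 for Aspa, -0.12 for Fa2h and -0.02 for Gal3st1.

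The remaining mature genes were lower on average in the ketogenic libraries as well, each with overlapping groups. The gap junction genes Gjb1 and Gjc3, which encode connexins of oligodendrocytes, had log2 changes of -0.75 ± 0.44 and -0.70 ± 0.42 (SE). Gjb1 measured 3.63, 3.23 and 6.06 FPKM in ketogenic libraries, against 14.5, 4.49 and 5.85 FPKM in chow libraries, with chow replicate 1 far above the rest. Hapln2, a link protein of the matrix at nodes of Ranvier, measured 10.5, 8.0 and 19.6 FPKM in ketogenic libraries, against 32.0, 10.4 and 12.8 FPKM in chow libraries. Ermn, a cytoskeletal protein of myelinating cells, and Tspan2, a tetraspanin, averaged 23.9 ± 12.7 and 27.1 ± 12.3 FPKM in ketogenic libraries, and 36.0 ± 17.6 and 40.8 ± 17.8 FPKM in chow libraries (SD, n = 3 each). The orphan receptor Gpr37, known in mice as a brake on oligodendrocyte differentiation, had a log2 change of -0.73. Adamts4, a protease of matrix proteoglycans, had one of -0.65, and Ppp1r14a, an inhibitor of myosin phosphatase, one of -0.61. Tmem88b and Tmem125 had log2 changes of -0.84 and -0.45. Without chow replicate 1 the log2 changes of these 10 genes lay between -0.44 for Tmem88b and 0.03 for Hapln2. Adjusted p-values of the 22 mature genes ran from 0.752 to 0.836.

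Among the transcription factors of the lineage, Olig2 had the log2 change nearest 0. Olig2 (ENSMUSG00000039830), which is needed from precursors onward, measured 8.80, 8.60 and 12.2 FPKM in ketogenic libraries, against 15.1, 8.42 and 7.85 FPKM in chow libraries. Ketogenic replicates 1 and 2 thus lay above chow replicates 2 and 3, and its log2 change was -0.03 ± 0.27 (SE). Olig1, its neighbour on chromosome 16, measured 32.4, 31 and 51.1 FPKM in ketogenic libraries, against 79.9, 40.8 and 38.4 FPKM in chow libraries. Myrf, the membrane-bound factor that switches on myelin genes, measured 7.05, 4.93 and 9.72 FPKM in ketogenic libraries, against 15.3, 6.94 and 7.33 FPKM in chow libraries. Olig1 and Myrf followed the mature genes in having chow replicate 1 highest and ketogenic replicate 2 lowest. Sox10, which acts throughout the lineage, measured 8.96, 6.25 and 11.1 FPKM in ketogenic libraries, against 17.3, 8.47 and 11.7 FPKM in chow libraries. Nkx6-2, a homeobox factor of mature oligodendrocytes, measured 2.78, 1.65 and 4.49 FPKM in ketogenic libraries, against 8.72, 3.41 and 3.99 FPKM in chow libraries. Log2 changes of these 4 were -0.43, -0.38, -0.46 and -0.73, and no factor passed limma's test (adjusted p from 0.752 to 0.974). Without chow replicate 1 the log2 changes were -0.36 for Nkx6-2, -0.21 for Sox10, -0.09 for Olig1, -0.03 for Myrf and 0.25 for Olig2. The direction of Olig2 depended on scaling, at 0.02 after each library was centred on its median, and that of the other 4 held under centring, quantile normalization and rescaling to TPM.

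The 4 precursor and premyelinating genes differed in how widely they spread over the libraries. Bcas1 (ENSMUSG00000013523), a protein of early myelinating cells that also stays in myelin, measured 27.7, 21.1 and 44.6 FPKM in ketogenic libraries, against 98.9, 33.5 and 44.7 FPKM in chow libraries. Enpp6, a choline phosphodiesterase of newly forming oligodendrocytes, measured 1.35, 0.715 and 1.95 FPKM in ketogenic libraries, against 3.46, 1.65 and 2.07 FPKM in chow libraries. Both spread as widely as mature genes, with highest-to-lowest ratios of 4.68 and 4.84. Gpr17, a receptor that marks committed precursors and holds back their maturation in mice, measured 9.02, 8.99 and 10.7 FPKM in ketogenic libraries, against 14.8, 11.5 and 10.5 FPKM in chow libraries. Pdgfra (ENSMUSG00000029231), the receptor for platelet-derived growth factor on precursors, measured 4.60, 4.25 and 8.97 FPKM in ketogenic libraries, against 6.12, 6.19 and 6.03 FPKM in chow libraries. Their ratios were 1.65 and 2.11, and chow replicate 1 stood out little in Gpr17 and not at all in Pdgfra. Log2 changes were -0.82 ± 0.45 (SE) for Bcas1, -0.66 ± 0.33 for Enpp6, -0.33 ± 0.15 for Gpr17 and -0.11 ± 0.26 for Pdgfra, with adjusted p-values of 0.752, 0.752, 0.752 and 0.908 (limma). Leaving out chow replicate 1 gave -0.38 for Bcas1, -0.41 for Enpp6, -0.19 for Gpr17 and -0.11 for Pdgfra. Gpr17 overlaps Lims2 on the opposite strand in the annotation of the earlier build GRCm38, and 13 of the 31 members overlap another annotated gene there, so reads may be shared where the counting did not use strand.

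No member was called as changed by diet. None of the 31, and none of the 16009 genes tested (0%), passed limma's test at an adjusted p under 0.05, and the same was true of limma's voom on recovered reads. An unadjusted p under 0.05 was reached by 861 genes in all, 5.38% of those tested, of which 532 were lower (3.32% of genes tested), and 0 of the 31 members. Every member had a negative log2 change, as did 56.9% of all genes, though Olig2 turned to 0.02 under median centring. A log2 change of -0.5 or below was found in 15 members and in 5.12% of all genes. That count rested on chow replicate 1. Without it only Ugt8a, at -0.58, stayed at -0.5 or below, with Tmem88b next at -0.44. By the fit on all 6 libraries, the median was -0.49 over the members and -0.04 over all genes. By list, the median was -0.60 in the mature genes, -0.43 in the transcription factors and -0.50 in the 4 precursor genes. In bulk tissue, fewer oligodendrocytes and less RNA per oligodendrocyte cannot be told apart. Without chow replicate 1 the median of the mature genes was -0.20, and 27 of 31 members were negative against 56.5% of all genes. Without ketogenic replicate 2 it was -0.32, and without both chow replicate 1 and ketogenic replicate 3 it was -0.43, with 30 of 31 members negative against 57.5% of all genes.

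**Figure D2:**
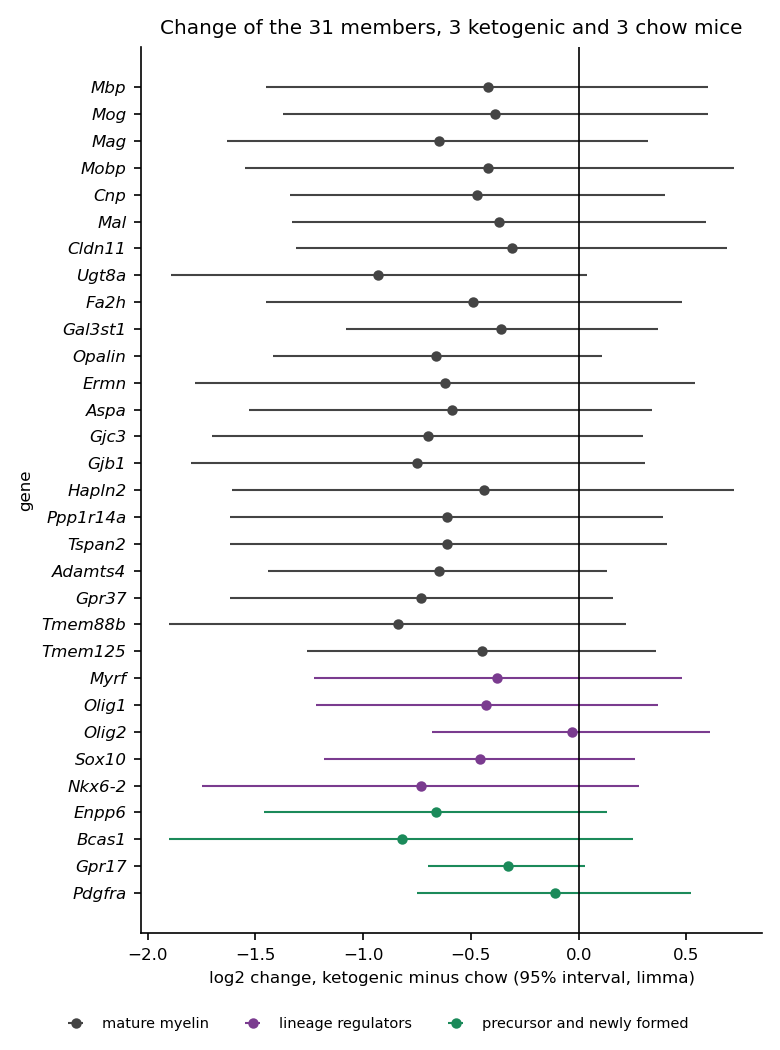
Log2 change of each member, ketogenic minus chow, on the log2(FPKM + 0.5) scale (points) with limma's 95% interval (lines), coloured by list, from 3 ketogenic and 3 chow libraries. All points lie below 0 (Olig2 at 0.02 after median centring), from -0.93 for Ugt8a to -0.03 for Olig2, and all intervals cross 0.

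Precursor and mature genes were set against each other within each library, which removes the part of the spread that they share. For each library, a list was given a level: every gene's log2(FPKM + 0.5) had its 6-library mean taken off, and the median over genes was kept. Mature myelin stood at -0.31, -0.79 and 0.22 in ketogenic replicates 1, 2 and 3, and at 1.03, -0.23 and 0.04 in chow replicates 1, 2 and 3. The precursor list stood at -0.29, -0.65 and 0.16 in ketogenic libraries and at 0.64, 0.01 and 0.10 in chow libraries. Precursor minus mature was 0.02, 0.14 and -0.06 in ketogenic libraries, and -0.39, 0.24 and 0.06 in chow libraries. The means were 0.03 and -0.03, a difference of 0.06 that is small beside the SD of 0.33 between chow libraries. Split as above after their values were seen, Gpr17 and Pdgfra minus the mature level gave 0.03, 0.46 and 0.07 in ketogenic libraries, and -0.78, 0.31 and -0.04 in chow libraries. Bcas1 and Enpp6 minus the mature level gave -0.08, -0.09 and -0.06 in ketogenic libraries, and 0.04, 0.08 and 0.15 in chow libraries. The first pair parted most from mature myelin in chow replicate 1, the library richest in myelin, while the second pair stayed within 0.15 of it in every library. The pairs were split by how widely they spread over these same libraries, so this contrast largely follows from the split.

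The same subtraction was made for single genes to show which members departed from the shared level. Aspa tracked it most closely, with a range of 0.06 over the 6 libraries, and Pdgfra, Gpr17 and Olig2 least, with ranges of 1.35, 1.13 and 1.05. Ugt8a lay below the mature level in the ketogenic libraries, at -0.20, -0.25 and -0.05, and above it in the chow libraries, at 0.12, 0.18 and 0.24. In the same pathway, Fa2h lay at 0.05, -0.02 and 0.12 in ketogenic libraries and at -0.06, -0.01 and -0.04 in chow libraries. Groups did not overlap on this scale in 6 members on the lower side (Ugt8a, Gjc3, Gpr37, Tmem88b, Nkx6-2 and Bcas1) and in 4 on the higher side (Mbp, Mog, Myrf and Olig2), where 3.82% of all genes were apart in either direction. These counts are a description, because the members themselves set the level subtracted. Before the subtraction 12.4% of all genes were apart in either direction, so the subtraction itself lowered that share. The 3.82% is therefore no background for the members. With the mature level as a covariate in the fit over all genes, the log2 change of Ugt8a was -0.33 (unadjusted p = 0.0274, adjusted p = 0.998 by limma), and it was the 1 member with an unadjusted p under 0.05, where 3.64% of all genes had one. No gene passed after adjustment in that fit (0%). Ugt8a helps to set the level and already had the largest difference of all members, so its unadjusted p is a description too.

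**Figure D3:**
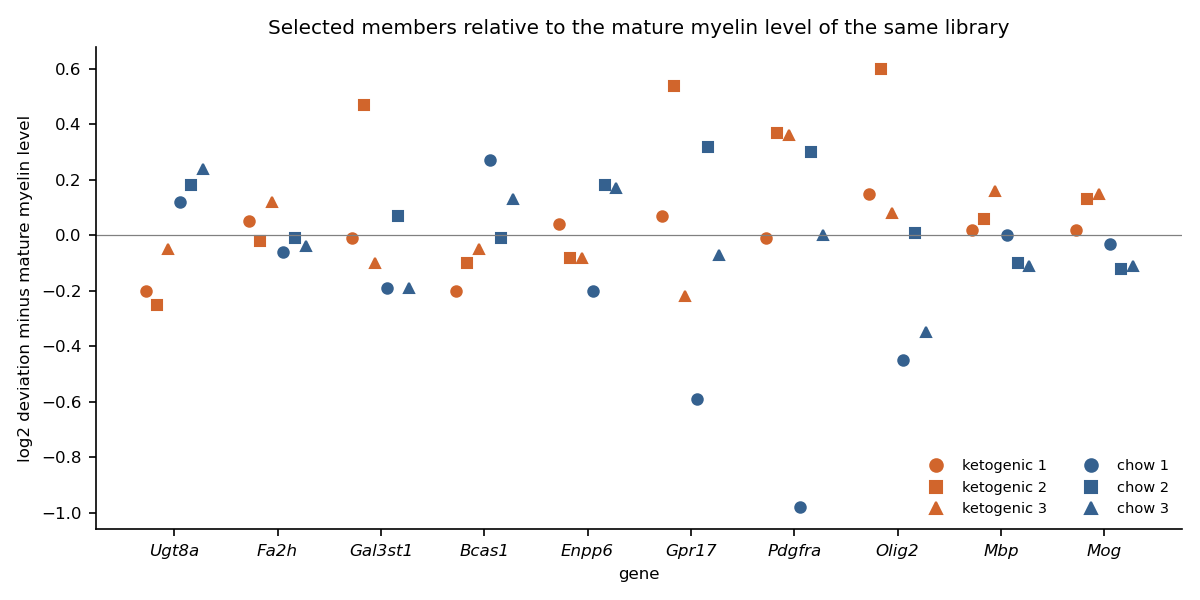
Deviation of 10 members minus the mature myelin level of the same library (log2 scale), ketogenic libraries left of chow libraries for each gene, symbols by replicate. Ugt8a is below 0 in the 3 ketogenic and above 0 in the 3 chow libraries, and Pdgfra and Gpr17 lie at -0.98 and -0.59 in chow replicate 1.

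Other genes of the lineage were read from lists that hold none of the members. All 25 other genes of mature oligodendrocytes had negative log2 changes, with a median of -0.49, and 23 of them were highest in chow replicate 1. The transporter gene Nipal4 averaged 0.623 ± 0.326 FPKM in ketogenic libraries and 1.38 ± 0.658 FPKM in chow libraries (SD, n = 3 each), with a log2 change of -0.72. Of 16 further precursor genes 12 were negative, with a median of -0.18 and no group apart. The 2 with the smallest p, Lhfpl3 (log2 change -0.80) and the metalloprotease Mmp15 (-0.77), had overlapping groups. In the committed precursor list 10 of 12 genes were negative (median -0.27), and the smallest p-values were those of Kif19a (-0.31), whose groups were apart, and Tmem163 (-0.67). Over all genes tested, 12.4% had groups apart in either direction. None of these lineage genes passed limma's test, with adjusted p-values of 0.752 or more.

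Regulators, lipid enzymes and axonal partners of myelin had medians nearer 0 than the mature genes. Chow replicate 1 was highest in 5 of 16 regulators, 11 of 24 lipid genes and 9 of 14 node and paranode genes. Over all genes tested that share was 29.6%. Of 16 other regulators of oligodendrocyte differentiation 10 were negative (median -0.07). The Notch ligand Jag1, which holds precursors back, averaged 0.996 ± 0.0644 FPKM in ketogenic libraries and 1.35 ± 0.241 FPKM in chow libraries (SD, n = 3 each), with groups apart. Dusp15, a phosphatase of the lineage, had a log2 change of -0.44. Of 24 genes for sphingolipids, galactolipids and ether lipids 17 were negative (median -0.09), against -0.04 over all genes. The smallest p-values were those of the ceramidase Asah1 (-0.23) and the ceramide synthase Cers6 (0.34), in a list that ran from -0.69 to 0.34. At nodes and paranodes 11 of 14 genes were negative (median -0.13). The nodal anchor Ank3 measured 16.4, 16.3 and 16.3 FPKM in ketogenic libraries, against 20.3, 18.4 and 18.1 FPKM in chow libraries, and the juxtaparanodal potassium channel Kcna2 had a log2 change of -0.45. Of 8 genes known from stressed oligodendrocytes 5 were positive and 3 negative (median 0.08). The smallest p-values were those of the cell cycle inhibitor Cdkn1a (0.58) and the ferrireductase Steap3 (-0.26), both with groups apart. Groups apart in either direction were found in 12.4% of all genes tested. None of the genes in these lists passed limma's test either (adjusted p of 0.752 or more).

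Markers of brain regions set the libraries apart, some in the order of the myelin genes and some in another. The level of thalamic neuron markers was -0.82, -1.10 and -0.72 in ketogenic libraries, and 2.74, -0.94 and 0.57 in chow libraries, and all 12 were highest in chow replicate 1. Prkcd, a kinase of thalamic relay neurons, measured 2.52, 2.75 and 4.47 FPKM in ketogenic libraries, against 135, 2.86 and 13.2 FPKM in chow libraries. Excitatory neuron markers of cortex and hippocampus ran the other way, at 0.76, 0.48 and -0.32 in ketogenic libraries and -1.02, 0.02 and 0.29 in chow libraries. Among them Slc17a7, a vesicular glutamate transporter, measured 181, 209.5 and 124 FPKM in ketogenic libraries, against 62.6, 139 and 143 FPKM in chow libraries. The libraries richest in myelin, chow replicate 1 and ketogenic replicate 3, were thus the lowest in these neuronal markers, and the thalamic level was highest in chow replicate 1 and low in ketogenic replicate 3. With the thalamic level as a covariate the median log2 change of the mature genes was 0.05, and 12 of 31 members were negative, against 53.3% of all genes. With the excitatory neuron level it was -0.13, and 22 of 31 were negative, against 55% of all genes. Striatal neuron markers summed to 54.1, 801 and 279 FPKM in ketogenic libraries, and 46.3, 1013 and 72.9 FPKM in chow libraries. They were lowest in chow replicate 1, where myelin genes were highest, and high in ketogenic replicate 2, where myelin genes were lowest, and their part in the myelin levels was not tested. A dissection that differed between mice and an effect of diet cannot be told apart from these 6 libraries.

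Further marker lists were read for cells that share genes with the members. Schwann cells of cranial nerves also make Mag, Mbp and Gjb1. Of their markers, 7 were in the table and summed to 31, 25.8 and 22.3 FPKM in ketogenic libraries, and 16.8, 25.0 and 27.0 FPKM in chow libraries, lowest in chow replicate 1. Prx was at no more than 0.487 FPKM in any library, while Cdh19 measured 3.50, 2.70 and 4.65 FPKM in ketogenic libraries, against 6.28, 2.20 and 4.21 FPKM in chow libraries, highest in chow replicate 1 as the myelin genes were. Their part in the myelin levels was not tested. Fibroblasts of the meninges and vessels also express Pdgfra. Their 8 markers summed to 11, 10.6 and 15.1 FPKM in ketogenic libraries, and 10.2, 12.7 and 14.0 FPKM in chow libraries, and 2 of the 8 were highest in ketogenic replicate 3, the library with the most Pdgfra, against 4 in chow replicate 3. Dcn stood at 5.16 FPKM and Slc6a13 at 2.52 FPKM in ketogenic replicate 3, and their highest values in chow libraries were 2.94 and 3.79 FPKM. Their part in the Pdgfra value was not tested. Choroid plexus markers summed to 3.88, 3.81 and 1106 FPKM in ketogenic libraries, and to 859.7, 7.86 and 1932 FPKM in chow libraries, so they were rich in the 3 libraries with the highest mature myelin levels. With the choroid plexus level as a covariate, the median log2 change was -0.32 for the mature genes, -0.26 for the transcription factors and -0.37 for the precursor genes. Summed markers were 555, 506 and 564 FPKM for astrocytes and 104, 123 and 112 FPKM for microglia in ketogenic libraries, and 629, 517 and 555 FPKM and 104, 147 and 101 FPKM in chow libraries. Endothelial markers summed to 77.7, 91.6 and 81.2 FPKM in ketogenic libraries, and 116, 96.0 and 94.0 FPKM in chow libraries. All 8 endothelial markers had negative log2 changes (median -0.30), against 56.9% of all genes. In 4 of them every ketogenic library lay below every chow library, against 7.49% of all genes. The same number were lower with an unadjusted p under 0.05 by limma, against 3.32% of all genes. Of the 8, 6 were highest in chow replicate 1, against 29.6% of all genes. None passed limma's test (smallest adjusted p = 0.752). Their part in the myelin levels was not tested. None of these 3 sums spread as widely as mature myelin, which summed to 851, 576 and 1318 FPKM in ketogenic libraries, and 2034, 829 and 1007 FPKM in chow libraries.

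**Figure D4:**
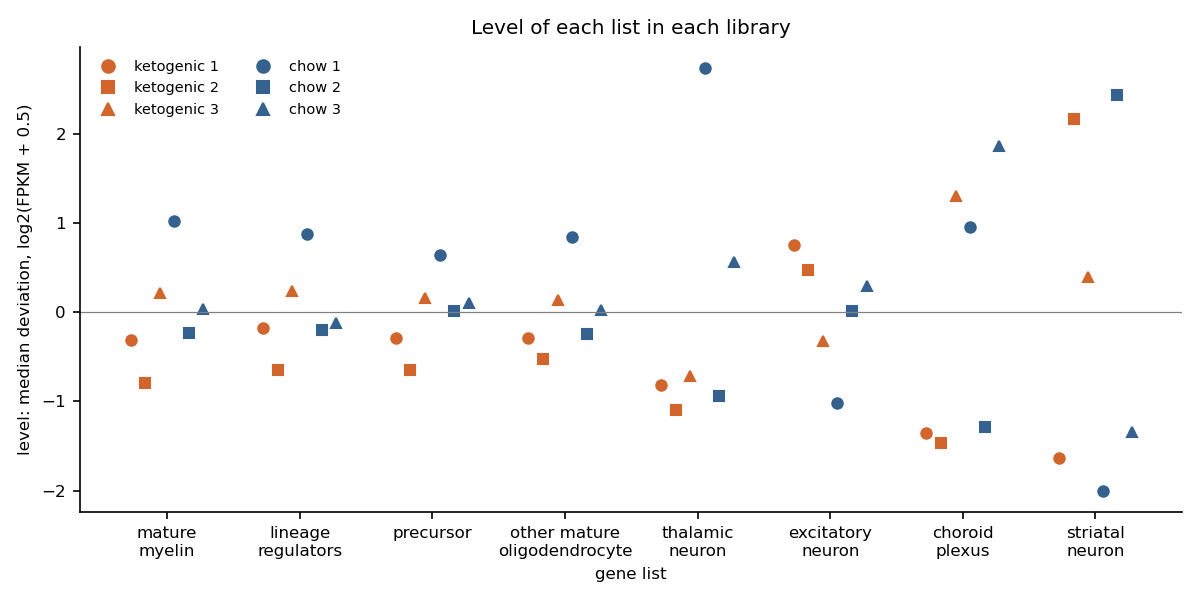
Level of 8 gene lists in each library (median deviation on the log2 scale), ketogenic libraries left of chow libraries, symbols by replicate. Chow replicate 1 is highest in the 4 oligodendrocyte lists and in thalamic markers (2.74) and lowest in excitatory neuron markers (-1.02), and ketogenic replicate 2 is lowest in the oligodendrocyte lists.

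The promoters of the members were also read for motifs of the factors that drive the lineage. RefSeq promoters of the build GRCm38.p6, from 250 bases before to 50 after each listed start, were at hand for 23 members, and 6 motifs were searched on both strands. A gene counted as matched if any of its windows matched, and the shares were not adjusted for the number of windows per gene. The MYRF motif CTGGNAC was in 9 of the 23 (39.1%), against 21.4% of 27025 genes. The SOX core ACAAAG was in 6 (26.1%), against 21% of genes, and the SOX form AACAAT in 6 (26.1%), against 12.2%. The E-box CANNTG, bound by Olig and other factors, was in 16 (69.6%), against 75% of genes. Its forms CAGATG and CAGCTG, which overlap CANNTG by definition, were in 9 (39.1%) and 3 (13%), against 19.2% and 18.3%. A match shows only that the letters are present. Whether these motifs bear on the differences between libraries or between diets was not tested. Opalin, Mag and Cnp, which are 3 of the 4 members with both CTGGNAC and ACAAAG (the other being Gjb1), are shown beside Ugt8a, the member with the largest difference, and Olig2 and Pdgfra, which are among the 3 members that followed the shared level least. Capitals mark the MYRF motif, both SOX forms and the first of these E-box forms, on either strand. Each runs 5′ to 3′ on the gene's own strand.
Opalin promoter, chr19:41077064-41077363, minus strand: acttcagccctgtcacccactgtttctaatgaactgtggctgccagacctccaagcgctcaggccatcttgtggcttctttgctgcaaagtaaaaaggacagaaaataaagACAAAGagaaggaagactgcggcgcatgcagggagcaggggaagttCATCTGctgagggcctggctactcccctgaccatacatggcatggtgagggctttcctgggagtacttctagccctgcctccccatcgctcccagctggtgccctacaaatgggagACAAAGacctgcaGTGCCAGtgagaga
Mag promoter, chr7:30914814-30915113, minus strand: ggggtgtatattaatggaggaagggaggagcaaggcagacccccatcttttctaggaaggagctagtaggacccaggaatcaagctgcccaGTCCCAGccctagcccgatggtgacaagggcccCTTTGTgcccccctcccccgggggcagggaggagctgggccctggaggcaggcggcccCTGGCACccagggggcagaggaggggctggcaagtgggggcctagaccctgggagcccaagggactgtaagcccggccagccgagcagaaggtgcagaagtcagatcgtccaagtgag
Cnp promoter, chr11:100574689-100574988, plus strand: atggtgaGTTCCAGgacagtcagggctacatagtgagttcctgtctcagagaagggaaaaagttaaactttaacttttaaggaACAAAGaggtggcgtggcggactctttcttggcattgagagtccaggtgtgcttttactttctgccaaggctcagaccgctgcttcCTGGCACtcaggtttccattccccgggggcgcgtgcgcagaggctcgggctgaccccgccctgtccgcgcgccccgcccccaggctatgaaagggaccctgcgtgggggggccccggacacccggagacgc
Ugt8a promoter, chr3:125938603-125938902, minus strand: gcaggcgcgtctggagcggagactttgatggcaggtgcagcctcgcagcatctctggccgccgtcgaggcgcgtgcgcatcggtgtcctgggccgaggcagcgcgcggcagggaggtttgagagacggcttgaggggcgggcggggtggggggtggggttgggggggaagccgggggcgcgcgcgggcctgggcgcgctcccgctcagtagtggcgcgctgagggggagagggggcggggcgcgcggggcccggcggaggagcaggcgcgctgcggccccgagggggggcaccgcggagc
Olig2 promoter, chr16:91225300-91225599, plus strand: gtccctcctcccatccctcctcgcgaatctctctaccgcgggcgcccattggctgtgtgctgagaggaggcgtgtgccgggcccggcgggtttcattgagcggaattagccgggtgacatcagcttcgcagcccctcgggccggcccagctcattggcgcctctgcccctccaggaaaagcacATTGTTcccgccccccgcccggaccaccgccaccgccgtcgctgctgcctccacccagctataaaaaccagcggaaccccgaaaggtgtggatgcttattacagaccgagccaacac
Pdgfra promoter, chr5:75152001-75152300, plus strand: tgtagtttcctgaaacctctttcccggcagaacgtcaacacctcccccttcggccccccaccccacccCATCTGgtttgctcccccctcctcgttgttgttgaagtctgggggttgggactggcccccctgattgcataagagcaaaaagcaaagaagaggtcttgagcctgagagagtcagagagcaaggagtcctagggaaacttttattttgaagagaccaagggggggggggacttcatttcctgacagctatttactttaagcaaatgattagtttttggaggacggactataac

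The Opalin promoter holds 2 SOX matches, 1 MYRF match and 1 CAGATG match, and those of Mag and Cnp each hold 2 MYRF matches and 1 SOX match. Mag has 3 listed start sites, of which the first is shown. None of the capitalised motifs is in the Ugt8a window, which has 1 E-box of another form. Olig2 has 1 match to AACAAT, and Pdgfra has 1 match to CAGATG.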

How the data were processed

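Polyadenylated RNA was made into paired-end libraries, per the labels' protocols. Per the submitters' processing notes, HISAT2 and featureCounts of Subread were used with GRCm39. The sources used here give no versions, annotation, strand setting or rule for multi-mapping reads. The authors deposited FPKM for 36079 genes in 6 libraries. Columns were assigned by sample title, and 35175 identifiers had a symbol in GENCODE M21 (GRCm38). Whole reads, known up to a factor common to a gene's libraries, were recovered for 100% of the 33862 genes above 0 (tolerance 0.001), with relative depth from 0.7223 to 1.0113. Library pairs differed by a chi-square of 38.79 or more per gene, so none is a copy of another.

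The 16009 genes averaging 0.5 FPKM or more entered the test, limma 3.58.1 under R 4.3.3 (lmFit, eBayes with a trend) on log2(FPKM + 0.5), two-sided, ketogenic minus chow, diet as the only term, with Benjamini-Hochberg adjustment over all genes and a threshold of 0.05. This scale understates changes of low genes. The fit was tested on simulated reads that held no shifts shared between genes, so that test does not speak to the shared spread between these libraries. Errors are SDs over 3 libraries or limma's SEs, and 95% intervals use its moderated spread. The members and lists were chosen with earlier results of these data known. Named are all 31 members, the 2 genes with the smallest p in each further lineage list, and the 2 with the highest mean FPKM in each marker list, of which some are given, and 1 gene that the rule names is not reported here. Prx, Cdh19 and the pairs of precursor genes were singled out after their values were seen, and the fit with the mature level as a covariate was added then. Alternatives were other pseudocounts, filters and scalings, a replicate block, marker covariates, library weights, voom on recovered reads and leaving out libraries. Coordinates of GRCm38.p6 belong to the promoter sequences only.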

Additional observations from a re-analysis of the deposited data

How the results depend on the processing

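No member and no gene had an adjusted p under 0.05 under any of the alternatives run. The median log2 change of the mature genes, -0.60, ran from -0.85 without chow replicate 2 to -0.20 without chow replicate 1 when 1 library was left out, that of the transcription factors from -0.64 to -0.09, and that of the precursor genes from -0.66 to -0.29. With the thalamic marker level as a covariate the mature median was 0.05, that of the transcription factors 0.06 and that of the precursor genes -0.11. With the choroid plexus level they were -0.32, -0.26 and -0.37, with the excitatory neuron level -0.13, -0.01 and -0.24, and with library weights -0.44, -0.26 and -0.40. Precursor minus mature, 0.06, ran from -0.06 to 0.20 when 1 library was left out. Single members changed sign as follows, the cause not tested. With the thalamic level as a covariate the log2 change was 0.25 for Mbp, 0.28 for Mog, 0.01 for Mag, 0.29 for Mobp, 0.07 for Cnp, 0.17 for Mal, 0.27 for Cldn11, 0.12 for Fa2h, 0.13 for Gal3st1, 0.04 for Ermn, 0.03 for Aspa, 0.02 for Gjb1, 0.33 for Hapln2, 0.10 for Ppp1r14a, 0.09 for Tmem125, 0.17 for Myrf, 0.06 for Olig1, 0.37 for Olig2 and 0.01 for Sox10. With the excitatory neuron level it was 0.06 for Mbp, 0.09 for Mog, 0.09 for Mobp, 0.13 for Cldn11, 0.14 for Hapln2, 0.02 for Myrf, 0.30 for Olig2 and 0.09 for Pdgfra. With the choroid plexus level, added after seeing the data, Olig2 stood at 0.07 and Pdgfra at 0.05. Olig2 was 0.02 after centring, 0.12 with library weights and 0.09 without both chow replicate 1 and ketogenic replicate 3, which was also added after seeing the data. Leaving out 1 library at a time moved Mog between -0.67 and 0.02, Cldn11 between -0.63 and 0.03, Hapln2 between -0.80 and 0.03, Olig2 between -0.20 and 0.25 and Pdgfra between -0.42 and 0.07. The labels do not say whether replicate numbers pair the mice. Deviations of same-numbered libraries correlated at -0.04, 0.48 and -0.21, and those of differently numbered ones at -0.31 to 0.45, which cannot settle it. With the replicate block 0 genes passed. Its mature median of -0.60 equals that of the main fit by design, because each number has 1 library per diet. Depth limits no member, the lowest having 141 recovered reads.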
